A study of Mus musculus with 3 samples.

Results

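The fibrocartilage-like cells of the D10 culture were taken as the cells that carry cluster code 4 of the authors in the deposited count table of that culture. They were 855 of the 7821 cells of the culture (10.9%, exact 95% interval 10.2 to 11.6), and the 3 libraries of the series held 15827 cells. The study differentiated mouse embryonic stem cells (mESCs) that carry the ScxGFP reporter of the tendon gene *Scx* into tendon and fibrocartilage cells, and compared them with cells of the embryonic mouse tail. The culture had been kept to D2 as embryoid bodies with LDN-193189, which blocks BMP receptors, at 500 nM. From D2 to D6 it received 5 μM CHIR, an agonist of the WNT pathway, with LDN-193189 at the same dose, to give paraxial mesoderm (PM). From D6 to D10 it received 10 ng/mL TGFβ1, 100 nM SAG, an agonist of the hedgehog pathway, and 10 ng/mL FGF2. The whole D10 culture was sequenced after depletion of dead cells and without a sort for ScxGFP, beside 1 library of the E14.5 mouse tail and 1 library of D6 PM cells. Which of the study's mESC lines gave the culture is not given in the sources used here. All cells compared below within the culture therefore share 1 day, 1 medium and 1 library.

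Fibrocartilage, found in the outer ring of the spinal discs and in the knee meniscus, joins the fibrous type I collagen of tendon with the type II collagen and the proteoglycans of cartilage. In the axial skeleton both tissues come from the somites, where the sclerotome expresses the transcription factors *Pax1* and *Pax9*, and the syndetome, the source of axial tendon, expresses *Scx*. *Sox9*, together with *Sox5* and *Sox6*, drives the genes of cartilage matrix such as *Col2a1* and *Acan*. Chondromodulin (*Cnmd*) of cartilage and tenomodulin (*Tnmd*) of tendon are related membrane proteins that mark the differentiated state of each tissue.

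Levels are given in CPM. For each group of cells, this is the number of unique molecular identifiers (UMIs), each of which stands for 1 captured transcript, that fell to a gene per 1000000 UMIs of the group. Parentheses hold exact 95% intervals for counting error. Every ratio is a description and no test was made, because each condition has 1 library and the cluster was itself made from these genes. The main comparison is with the 2964 tendon-like cells (code 1), the most numerous cells of the culture. Values against all 6966 other culture cells and against the 1353 proliferating tendon-like cells (code 2) are given for some genes and lists only. In the lists below, a ratio with no group named is to tendon-like cells. Its direction can differ against all other culture cells, as for *Col3a1*, *Sdc4* and *Bmp4*.

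The promoters of 5 genes are shown because these genes stand for the cartilage side (*Cnmd*, *Acan*, *Col11a2*), the tendon side (*Tnmd*) and the hypoxia side (*Car9*) of the values below. Each window holds 250 bases before and 50 bases after the annotated start in RefSeq, build GRCm38.p6, on the strand of the gene. The windows are chr14:79662134-79662433 (minus strand) for *Cnmd*, chr7:79052976-79053275 (plus strand) for *Acan*, chr17:34038888-34039187 (plus strand) for *Col11a2*, chrX:133850758-133851057 (plus strand) for *Tnmd* and chr4:43506776-43507075 (plus strand) for *Car9*. Capitals mark matches on either strand to ACAAAG or ACAATG (letters of SOX sites), to CANNTG (the E-box, the kind of site that basic helix-loop-helix factors such as SCX bind), to ACGTG (the core of the hypoxia response element) and to TATAAA.
Cnmd: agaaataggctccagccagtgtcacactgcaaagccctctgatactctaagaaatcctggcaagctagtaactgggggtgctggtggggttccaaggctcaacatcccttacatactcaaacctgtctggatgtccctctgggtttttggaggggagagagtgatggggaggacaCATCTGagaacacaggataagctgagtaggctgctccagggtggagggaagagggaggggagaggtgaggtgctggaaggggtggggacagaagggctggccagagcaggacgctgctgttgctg
Acan: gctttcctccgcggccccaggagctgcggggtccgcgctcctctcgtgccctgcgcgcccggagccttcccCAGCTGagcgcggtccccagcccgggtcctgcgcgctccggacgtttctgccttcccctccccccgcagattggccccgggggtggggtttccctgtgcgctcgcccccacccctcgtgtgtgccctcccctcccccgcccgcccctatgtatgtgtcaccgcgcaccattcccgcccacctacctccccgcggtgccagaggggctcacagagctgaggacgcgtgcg
Col11a2: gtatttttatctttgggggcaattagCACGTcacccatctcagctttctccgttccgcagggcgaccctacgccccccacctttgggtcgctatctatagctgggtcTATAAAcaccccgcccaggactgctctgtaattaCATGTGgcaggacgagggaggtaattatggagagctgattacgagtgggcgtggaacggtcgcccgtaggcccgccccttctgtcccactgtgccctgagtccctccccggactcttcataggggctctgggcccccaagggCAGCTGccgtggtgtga
Tnmd: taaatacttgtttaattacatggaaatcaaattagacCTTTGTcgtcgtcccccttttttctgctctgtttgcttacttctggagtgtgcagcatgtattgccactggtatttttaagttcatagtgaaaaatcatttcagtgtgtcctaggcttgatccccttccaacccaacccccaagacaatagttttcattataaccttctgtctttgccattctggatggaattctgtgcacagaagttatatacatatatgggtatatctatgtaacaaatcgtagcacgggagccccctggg
Car9: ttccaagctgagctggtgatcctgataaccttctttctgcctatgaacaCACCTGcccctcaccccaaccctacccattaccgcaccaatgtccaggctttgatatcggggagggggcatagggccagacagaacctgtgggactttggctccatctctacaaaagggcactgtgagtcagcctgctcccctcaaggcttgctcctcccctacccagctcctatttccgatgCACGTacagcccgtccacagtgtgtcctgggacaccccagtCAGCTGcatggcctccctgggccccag
A CACGTG would match both CANNTG and ACGTG. The *Cnmd* window held 1 E-box, 75 bases before the start, and the *Acan* window 1 E-box, 179 bases before the start. The *Tnmd* window held no E-box and 1 ACAAAG on the minus strand, 213 bases before the start. The *Col11a2* window held E-boxes 109 bases before and 34 bases after the start, ACGTG on the minus strand 224 bases before it and TATAAA 143 bases before it. The *Car9* window held E-boxes 201 bases before and 24 bases after the start, and ACGTG on the minus strand 18 bases before it. Among all 32851 promoter windows of the table, 72.3% held CANNTG, 19.6% ACGTG, 18.7% ACAAAG, 13.6% TATAAA and 12.6% ACAATG. In the 30 windows of the 26 genes with an entry, of 36 genes in the cartilage matrix list described below, the shares were 80% for CANNTG, 16.7% for ACGTG, 6.67% for ACAAAG and 10% for ACAATG. In the 34 windows of 24 of 32 genes of the hypoxia list, ACGTG stood in 52.9% and CANNTG in 55.9%. A match says only that these letters stand in the window.

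The fibrocartilage-like cells were shallower than most cells of the culture. They held 3325501 UMIs in all, with a median of 3696 UMIs per cell (837 to 16561) and 2026 genes, against medians of 4918.5 UMIs and 2438 genes in tendon-like cells, 7324 UMIs in proliferating tendon-like cells and 6078.5 UMIs over all other cells. Median mitochondrial and ribosomal shares were 1.55% and 7.58% in fibrocartilage-like cells and 1.92% and 6.10% in tendon-like cells. Scrublet called 2 of the 855 cells (0.234%) as doublets, against 116 of all 7821 (1.48%). Of the barcodes, 10 were shared with the D6 PM library, 1 of them in a fibrocartilage-like cell, and 4 with the tail, none of them in one. For shares of cells with a UMI, every cell was thinned at random to 2000 UMIs, which left out 48 fibrocartilage-like cells and kept 807.

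All 4 marker genes of the label were highest in the fibrocartilage-like cells among the 10 clusters of the culture with at least 50 cells. *Col2a1*, the chain of type II collagen, stood at 2271 CPM (2220 to 2323) in them and at 218 CPM in tendon-like cells, a ratio of 10.4 (10.0 to 10.8). *Acan*, the core protein of aggrecan, stood at 208 CPM against 11.3 CPM, a ratio of 18.5 (15.7 to 21.8). *Sox9* stood at 410 CPM against 108 CPM, a ratio of 3.79 (3.53 to 4.06). *Cnmd* stood at 54.1 CPM against 1.02 CPM, a ratio of 52.8 (32.1 to 92.7) that rested on 180 UMIs in 85 cells and was 87.0 when the CPM of single cells was averaged. Outside these cells the order of *Col2a1* was 500 CPM in proliferating tendon-like cells, 218 CPM in tendon-like cells and between 3.03 and 91.7 CPM in the 7 other clusters. The intervals of the first 3 clusters in that order do not overlap. *Sox9* followed the same order, with 150 CPM in proliferating and 108 CPM in tendon-like cells, and *Acan* stood at 38.8 and 11.3 CPM.

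The tendon gene *Scx* was present in these cells at 1852 CPM (1806 to 1899), below tendon-like cells at 2410 CPM (a ratio of 0.768) and proliferating cells at 2699 CPM. The cluster with code 7, with a median of 1424 UMIs, also held *Scx*, at 2388 CPM. *Tnmd*, in contrast, had 0 UMIs in all 855 cells, against 391 UMIs or 23.6 CPM in tendon-like cells. Taking 3 counts in the whole group as the floor, the level was at least 26.1-fold lower. The plot of marker levels by cluster shows *Scx* highest in these 4 clusters, and *Col2a1*, *Sox9*, *Acan* and *Cnmd* highest in fibrocartilage-like cells and next highest in proliferating tendon-like cells.

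**Figure D1:**
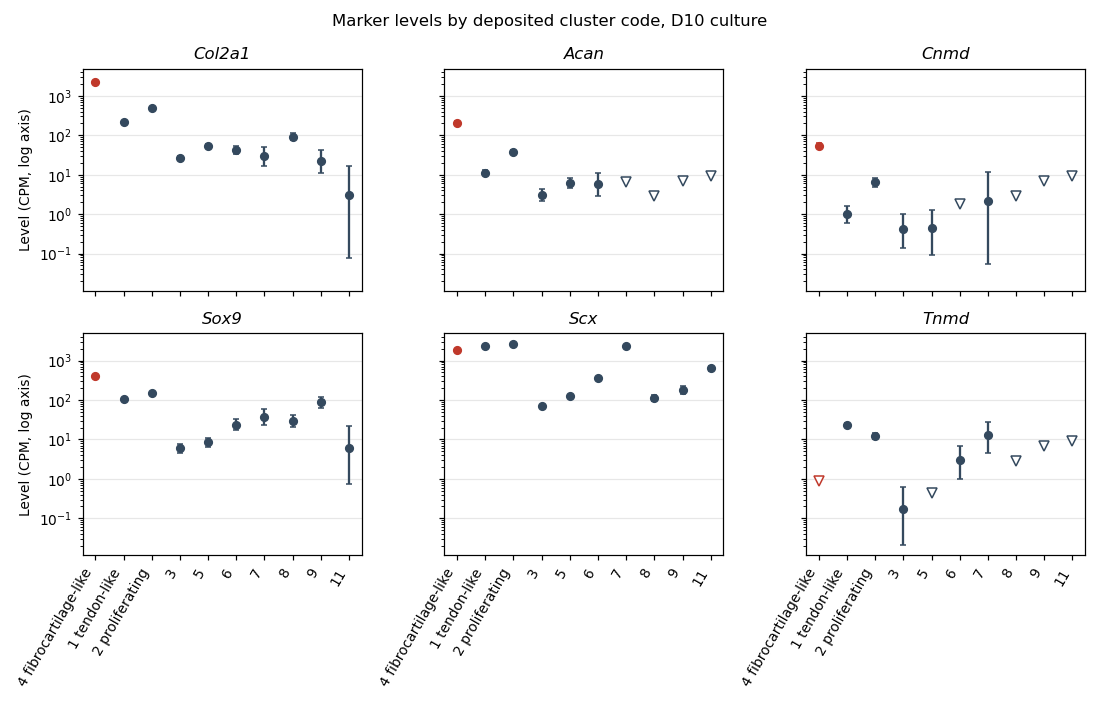
Levels of the cartilage and tendon markers in CPM (log axis) in the culture clusters with at least 50 cells, with exact 95% intervals for counting error and open triangles at the floor of 3 counts where a cluster has no UMI. *Col2a1*, *Acan*, *Cnmd* and *Sox9* are highest in the fibrocartilage-like cells (2271, 208, 54.1 and 410 CPM), where *Scx* stands at 1852 CPM and *Tnmd* has no UMI.

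At an equal depth of 2000 UMIs, *Col2a1* was found in 87.1% of fibrocartilage-like cells, 39.7% of proliferating and 26.9% of tendon-like cells. In the pluripotent-like cells (code 3), which should lack it and whose median depth before thinning was 10369.5 UMIs, the share was 3.77%. *Sox9* was found in 49.3%, 22.5%, 17.4% and 0.83% of the same 4 groups in that order, and *Acan* in 23.9%, 6.51%, 2.02% and 0.74%. *Cnmd* was found in 7.06% of fibrocartilage-like cells, 1.11% of proliferating cells, 0.14% of tendon-like cells and no pluripotent-like cell. Before thinning, the shares in fibrocartilage-like cells were 94.0% for *Col2a1*, 64.8% for *Sox9*, 34.5% for *Acan* and 9.94% for *Cnmd*. *Tnmd* was found in none of the 807 cells and in 2.62% of tendon-like cells. A floor of 3 cells would be 0.372%, which limits cells with a UMI at this shallow depth and not cells that express the gene.

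Few single cells showed the whole marker set. At 2000 UMIs at least 1 of the 4 markers was found in 93.3% of fibrocartilage-like cells, at least 2 in 53.9%, at least 3 in 17.1% and all 4 in 25 cells (3.1%), while 54 cells (6.69%) showed none. At least 2 markers were found in 8.04% of tendon-like and 16.4% of proliferating cells. Of the 193 cells with an *Acan* UMI, 189 also had a *Col2a1* UMI, and of the 57 cells with a *Cnmd* UMI, 38 also had an *Acan* UMI. Many cells had both cartilage and tendon transcripts. *Col2a1* and *Col1a1*, the main chain of type I collagen, were both found in 514 cells (63.7%), against 25.8% of tendon-like cells, and *Sox9* with *Scx* in 318 cells (39.4%), against 15.1%. The products of the single shares give 64.8% and 38.7% in fibrocartilage-like cells, so that these pairs occurred about as often as the frequency of each gene alone gives.

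Over all genes, fewer differed by 2-fold from tendon-like cells than from the whole culture. Genes were counted if they had a UMI in 10% or more of the cells on either side. A gene can pass through a single side, which by construction favours ratios that are high on that side. Against the other culture cells, 280 of 8014 genes were at least 2-fold higher (3.49%) and 668 at least 2-fold lower (8.34%). Against tendon-like cells, 109 of 7077 genes were at least 2-fold higher (1.54%) and 238 at least 2-fold lower (3.36%). With at least 10 UMIs over both groups, 5.24% of 16067 genes were higher and 11.5% lower. The counts of each list below stand beside these shares. Among the genes with the lowest ratios to the whole culture were pluripotency and haemoglobin genes, named here as examples. The pluripotency genes *Sall4* and *Sox2* had 1 and 8 UMIs in fibrocartilage-like cells, and *Utf1*, of the same kind, had 8. The embryonic haemoglobin genes *Hbb-bh1* and *Hbb-y* had 1 and 19 UMIs, or 0.301 and 5.71 CPM, against 52.8 and 540 CPM in all other cells. Reads that map to several genes had not been counted, which touches such gene families.

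Against tendon-like cells, cartilage matrix was the list with the widest median ratio. Of its 36 genes, 12 were found in at least 10% of cells on either side. Of these 12, 10 were at least 2-fold higher than in tendon-like cells and 1 was lower, where 1.54% and 3.36% of all genes were. The median log2 ratio was 3.03 against 0.02 over all genes. *Acan*, *Col11a2* and *Chad* passed the filter only through the fibrocartilage-like cells, so that these values lean to the higher side by construction. Counting every gene with at least 10 UMIs over both groups, found or not in 10% of cells, 20 of 32 were higher and 3 lower, where 5.24% and 11.5% of 16067 genes were. *Vit* and *Clec3a* had no UMI. Summed over the list, the level was 7547 CPM against 1489 CPM, 5.07-fold higher. The list holds the label markers *Col2a1*, *Acan* and *Cnmd*, so that its values in part restate how the cells were named. No value without these markers was made.

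Among the fibril collagens of cartilage that accompany type II collagen, *Col9a1* stood at 687 CPM (659 to 716) against 54.6 CPM, a ratio of 12.6 (11.6 to 13.6). The other chains of type IX collagen, *Col9a2* and *Col9a3*, were at 532 and 803 CPM, 3.62-fold and 5.84-fold higher. The type XI chains differed from each other, with *Col11a2* at 58.3 CPM and 35.8-fold higher (23.9 to 55.8), and *Col11a1* at 1417 CPM and 2.60-fold higher. *Col27a1*, a further fibrillar chain of cartilage, stood at 78.2 CPM against 75.9 CPM, with an interval of the ratio from 0.898 to 1.18. The interval of *Col27a1* holds 1, unlike those of the type II, IX and XI chains.

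Several adaptor proteins of cartilage matrix were higher, and others were not. *Matn4*, a matrilin, stood at 617 CPM and was 10.2-fold higher than in tendon-like cells (9.44 to 11). *Chad* (chondroadherin) stood at 58.0 CPM and was 10.5-fold higher, and *Prelp*, a leucine-rich proteoglycan outside the list, stood at 76.4 CPM and was 14.4-fold higher (11.3 to 18.6). *Hapln1*, the link protein of aggrecan, stood at 28.0 CPM and was 3.65-fold higher (2.77 to 4.81), though it was found in fewer than 10% of cells. These 4 genes all encode secreted proteins that bind collagen or proteoglycan. *Wwp2*, a ubiquitin ligase whose gene hosts a cartilage microRNA, stood at 511 CPM and was 6.58-fold higher. *Cilp*, the cartilage intermediate layer protein, went the other way at 4.21 CPM against 49.5 CPM, 11.8-fold lower (6.97 to 21.6). *Epyc* (epiphycan) was also lower, at 7.82 CPM against 19.2 CPM. *Matn2*, *Matn3* and *Comp* were low in both groups, at 4.51, 2.41 and 1.5 CPM in fibrocartilage-like cells, with intervals that hold the levels of tendon-like cells.

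**Figure D2:**
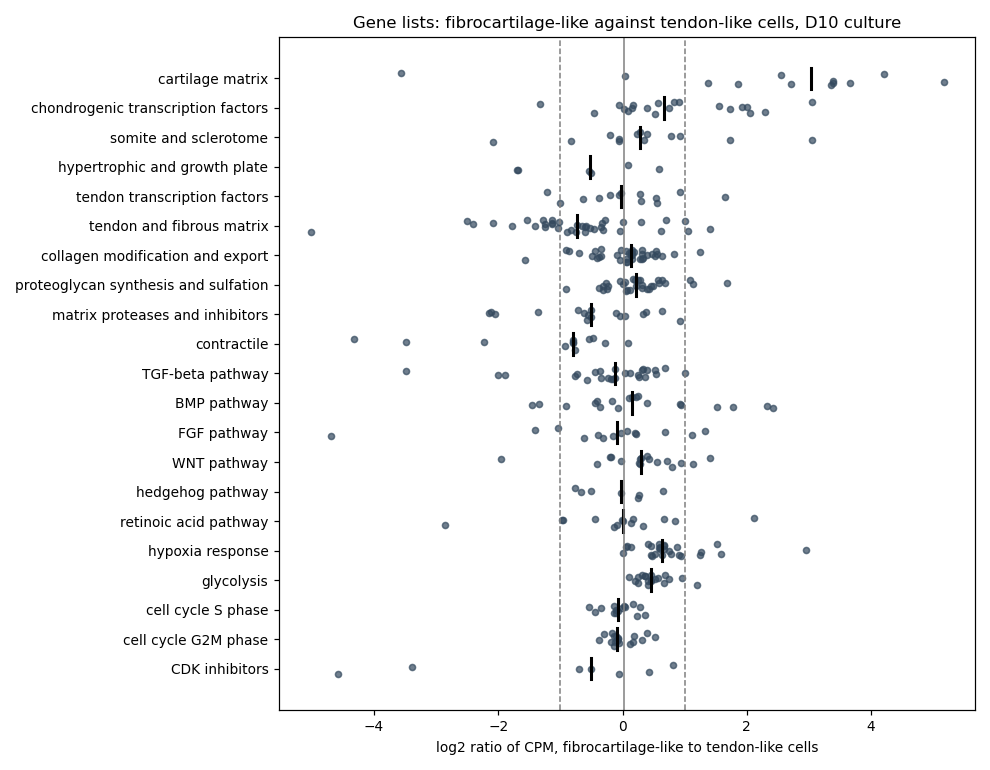
Log2 ratio of the level in fibrocartilage-like cells to that in tendon-like cells for the genes of each list that passed the 10% detection filter, each point 1 gene, with the median of each list as a bar and 2-fold as dashed lines. The cartilage matrix list has a median of 3.03 and the tendon and fibrous matrix list a median of -0.74, and most signalling lists lie near 0.

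The transcription factors of the chondrogenic list numbered 32, of which 20 passed the filter, 7 at least 2-fold higher and 1 lower, with a median log2 ratio of 0.67. *Pax1*, *Sox6* and *Creb5* passed the filter only through the fibrocartilage-like cells, so that these values lean to the higher side by construction. With at least 10 UMIs, 12 of 29 were higher and 3 lower, against 5.24% and 11.5% of all genes. Beside *Sox9*, *Sox5* stood at 110 CPM and was 4.03-fold higher (3.50 to 4.63) and *Sox6* at 68.6 CPM and 4.92-fold higher (4.08 to 5.94). The sclerotome factors *Pax1* and *Pax9* stood at 143 and 215 CPM and were 8.30-fold (7.16 to 9.65) and 3.30-fold (3 to 3.64) higher. At equal depth, *Pax1* was found in 20.6% and *Pax9* in 34.1% of cells, and both in 57 of the 807 cells. *Foxp2*, a forkhead factor, was 2.92-fold higher at 183 CPM, and *Creb5*, a factor of articular cartilage, 4.14-fold higher at 40.9 CPM. *Trps1*, which restrains chondrocyte maturation, was 1.49-fold higher at 395 CPM, and *Arid5b*, a partner of SOX9, was 2.50-fold lower at 63.1 CPM.

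The list of 24 somite and sclerotome genes, which shares *Pax1*, *Pax9* and a few other genes with the chondrogenic list, had 13 genes past the filter, 2 at least 2-fold higher and 1 lower, against 1.54% and 3.36% over all genes, and a median log2 ratio of 0.28. Of the higher genes, *Pax1* passed the filter only through the fibrocartilage-like cells. *Tcf15* of the epithelial somite was 1.89-fold higher at 90.8 CPM, *Meox1* 1.22-fold higher at 158 CPM and *Twist1* 1.18-fold higher at 705 CPM. *Prrx1*, a factor of limb and lateral plate mesenchyme, was the gene that was lower, at 34.6 CPM against 147 CPM, or 4.24-fold (3.51 to 5.15). With at least 10 UMIs, 5 of 18 genes of the list were higher, among them *Nkx3-2*, a target of the sclerotome program, at 4.21 CPM on 14 UMIs.

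Genes of hypertrophic cartilage, the mature form that calcifies, were few and low. Of 20 genes listed 18 were in the file, 6 passed the filter, none was at least 2-fold higher and 2 were lower. Over all genes, 1.54% were higher and 3.36% lower. With at least 10 UMIs, 5 of 13 were lower and 1 was higher, against 11.5% and 5.24% of all genes. The higher gene was the receptor *Fgfr3*, which restrains the growth plate, at 6.31 CPM against 0.844 CPM on 21 and 14 UMIs. *Ihh*, *Mmp13*, *Ibsp* and *Panx3* had no UMI, and the last 3 had none in tendon-like cells either. *Spp1*, or osteopontin, stood at 78.5 CPM against 251 CPM, 3.20-fold lower, and *Runx2*, which drives hypertrophy and bone, at 29.2 CPM, with an interval of the ratio from 0.849 to 1.33. *Vegfa*, which hypertrophic cells and hypoxic cells secrete, was 1.5-fold higher at 181 CPM.

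Many genes of tendon and fibrous matrix were lower than in tendon-like cells, and most were still detected. Of the 44 genes of tendon and fibrous matrix, 37 passed the filter, 15 were at least 2-fold lower than in tendon-like cells and 3 higher, and the median log2 ratio was -0.74. With at least 10 UMIs over both groups, 18 of 43 were lower and 4 higher, against 11.5% and 5.24% of all genes. Summed over the list, the level was 18037 CPM against 30107 CPM in tendon-like cells. Against all other culture cells the balance was different. There 6 of 37 genes were at least 2-fold higher and 4 lower, against 3.49% and 8.34% of all genes. The median log2 ratio was 0.17, and the sum in the other cells was 16455 CPM. *Col3a1* was 1.24-fold higher in that comparison. Of the main fibrillar chains, *Col1a1* stood at 1244 CPM against 2741 CPM (2.20-fold lower), *Col1a2* at 571 CPM against 1963 CPM (3.44-fold lower) and *Col3a1* at 1244 CPM against 1884 CPM (1.51-fold lower). *Col1a1* was nonetheless found in 74.3% of fibrocartilage-like cells at equal depth, against 96.8% of tendon-like and 5.06% of pluripotent-like cells.

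Among the non-collagen genes of tendon, the differences ran from slight to near absence. *Fn1* (fibronectin) stood at 2327 CPM and was 1.24-fold lower, and *Sparc*, a collagen-binding protein, at 1830 CPM and 1.22-fold lower. *Dcn* (decorin) stood at 662 CPM and was 2.66-fold lower, *Postn* (periostin) at 992 CPM and 2.38-fold lower and *Bgn* (biglycan) at 768 CPM and 1.44-fold lower. *Dcn* and *Postn* were thus lower by ratios close to that of *Col1a1*. *Thbs4* (thrombospondin 4), a tendon and muscle attachment protein, had 9 UMIs or 2.71 CPM against 87.5 CPM, 32.3-fold lower (17.0 to 70.9), with a ratio of 0.0309 that became 0.0158 after thinning to 2000 UMIs. *Aspn* (asporin) was 5.32-fold lower at 21.4 CPM, *Igfbp7* 5.67-fold lower at 146 CPM and *Igfbp5* 4.25-fold lower at 328 CPM. The 3 genes of the list that were higher were *Fmod* (fibromodulin) at 746 CPM, 2.65-fold, *Col14a1* at 613 CPM, 2.07-fold, and *Ctgf* at 304 CPM, 2.01-fold (1.87 to 2.17), the last so near the 2-fold line that its interval crosses it.

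Of the 20 tendon transcription factors, 13 passed the filter, with a median log2 ratio of -0.02. Of these, 1 was at least 2-fold higher and 2 lower, against 1.54% and 3.36% of all genes. With at least 10 UMIs, 1 of 19 was higher and 6 lower, against 5.24% and 11.5%. *Mkx*, which drives type I collagen in tendon, stood at 21.0 CPM and was 2.33-fold lower (1.82 to 3.01), and *Egr1*, a factor induced by load and growth factors, at 45.7 CPM and 1.56-fold lower (1.32 to 1.86). *Klf4* was the gene that was higher, at 91.4 CPM and 3.15-fold (2.72 to 3.64). *Scx* was thus closer to its level in tendon-like cells than *Mkx* was.

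Of 44 genes of collagen modification and export, 38 passed the filter with a median log2 ratio of 0.14, 1 higher and 1 lower by at least 2-fold, which is near the shares over all genes (1.54% higher and 3.36% lower). *Plod2*, the lysyl hydroxylase of telopeptides, was the higher gene, at 1634 CPM and 2.38-fold (2.30 to 2.45). The prolyl hydroxylases *P4ha1* and *P4ha2* stood at 1065 and 777 CPM, 1.39-fold and 1.56-fold higher, and the collagen chaperone *Serpinh1* at 1791 CPM, with an interval from 0.956 to 1.01. *Lox*, the cross-linking lysyl oxidase, was 1.88-fold lower at 155 CPM, and its relative *Loxl1* was the lower gene, 2.97-fold at 16.8 CPM. Against all other culture cells, 10 of 37 genes of this list were at least 2-fold higher and none was lower, with a median log2 ratio of 0.72. Over all genes in that comparison, 3.49% were higher and 8.34% lower.

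Proteoglycan synthesis showed 3 of 31 genes at least 2-fold higher than in tendon-like cells and none lower, of 49 listed, with a median log2 ratio of 0.21. With at least 10 UMIs, 7 of 45 were higher and 1 lower, against 5.24% and 11.5% of all genes. The proteoglycan core proteins *Cspg4* and *Sdc4* stood at 100 and 69.2 CPM and were 3.19-fold (2.77 to 3.67) and 2.12-fold (1.81 to 2.48) higher. Against all other culture cells, *Sdc4* was lower, at a ratio of 0.647. *Has2*, the synthase of hyaluronan, the polymer that aggrecan binds, was 2.19-fold higher at 46.0 CPM (1.80 to 2.66). *Vcan* (versican) was 1.31-fold higher at 1026 CPM, and *Papss1*, which makes the sulphate donor for chondroitin sulphate, 1.34-fold higher at 175 CPM.

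Of 24 genes of the retinoic acid list, 14 passed the filter, with a median log2 ratio of 0.00. Of these, 1 was at least 2-fold higher and 1 lower, against 1.54% and 3.36% of all genes. With at least 10 UMIs, 1 of 21 was higher and 3 lower, near the shares of 5.24% and 11.5% over all genes. *Cyp26b1*, which degrades retinoic acid, stood at 37.6 CPM (31.3 to 44.8) against 8.68 CPM, 4.33-fold higher (3.38 to 5.54). It was the higher gene and passed the filter only through the fibrocartilage-like cells. *Aldh1a3*, which makes retinoic acid, stood at 19.5 CPM (15.1 to 24.9) against 142 CPM, 7.24-fold lower (5.66 to 9.41). Proliferating tendon-like cells lay on the tendon side for both genes, with 13.9 CPM of *Cyp26b1* and 115 CPM of *Aldh1a3*. At equal depth, *Cyp26b1* was found in 6.82% of fibrocartilage-like and 1.95% of tendon-like cells, and *Aldh1a3* in 2.73% and 21.3%. *Crabp2*, which binds retinoic acid in the cell, was 1.94-fold lower at 43.9 CPM. *Fabp5*, a fatty acid binding protein that also carries retinoic acid, was 1.58-fold higher at 4088 CPM, and the receptor gene *Rarg* 1.80-fold higher at 88.1 CPM (1.57 to 2.06).

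The BMP list had 4 of 19 genes at least 2-fold higher and 2 lower, of 36 listed, with a median log2 ratio of 0.15. With at least 10 UMIs, 7 of 30 were higher and 4 lower, against 5.24% and 11.5% of all genes. The receptor *Bmpr1b*, needed in early cartilage, stood at 39.4 CPM and was 4.99-fold higher (3.89 to 6.4), and the ligand *Bmp7* at 52.3 CPM was 3.43-fold higher (2.81 to 4.18). *Bmpr1b* and *Bmp7* passed the filter only through the fibrocartilage-like cells, which leans the count to the higher side by construction. The targets *Id1* and *Id4* were 2.86-fold and 5.33-fold higher at 339 and 116 CPM, whereas *Id3* at 435 CPM was 1.11-fold higher. *Bmp4* was lower, at a ratio of 0.756 and 81.8 CPM, but was 1.44-fold higher than in all other culture cells. The antagonist *Nbl1* and the ligand *Gdf10* were 2.54-fold and 2.74-fold lower at 11.1 and 10.5 CPM. The BMP genes named here did not share 1 direction.

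In the FGF list 2 of 14 genes were at least 2-fold higher and 3 lower, of 28 listed, with a median log2 ratio of -0.08. With at least 10 UMIs, 4 of 25 were higher and 6 lower, against 5.24% and 11.5% of all genes. The receptor genes *Fgfr2* and *Fgfrl1* were 2.16-fold (1.82 to 2.56) and 2.52-fold (2.32 to 2.73) higher at 59.8 and 266 CPM, and *Fgfr1* was 1.60-fold higher at 368 CPM. The ligand *Fgf9* had 4 UMIs or 1.20 CPM against 30.9 CPM, 25.7-fold lower (9.96 to 94.5), a ratio of 0.0390 that rests on those few UMIs and became 0.0223 after thinning. The feedback inhibitors *Spry1* and *Dusp6*, which FGF signalling induces, were 2.67-fold and 2.05-fold lower at 34.0 and 71.3 CPM. The receptors thus lay on the higher side, and *Fgf9* and the 2 feedback genes on the lower side.

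Over all genes, 1.54% were at least 2-fold higher and 3.36% lower, or 5.24% and 11.5% with at least 10 UMIs. In the WNT list 2 of 17 genes were at least 2-fold higher and 1 lower, of 39 listed, with a median log2 ratio of 0.30. With at least 10 UMIs, 5 of 34 were higher and 6 lower. *Wnt5a*, a ligand of the noncanonical pathway, was 2.64-fold higher at 55.9 CPM and the receptor *Fzd8* 2.19-fold higher at 88.1 CPM. *Rspo3*, which amplifies WNT signals, was 3.86-fold lower at 50.5 CPM. In the TGF-beta list 1 of 26 genes was at least 2-fold higher and 3 were lower, of 32 listed, with a median of -0.12. With at least 10 UMIs, 1 of 31 was higher and 4 lower. The ligand *Tgfb2* and the latency protein *Ltbp1* were 1.43-fold and 1.61-fold higher at 109 and 144 CPM, and the target *Ctgf* was the gene at 2-fold. The lower genes included *Tagln* and *Tgfb1i1*, an adaptor protein of focal adhesions, 3.72-fold at 25 CPM. In the hedgehog list none of 7 genes passed 2-fold in either direction, of 21 listed, with a median of -0.02. With at least 10 UMIs, 1 of 17 was higher and 1 lower. The target and receptor *Ptch1* was 1.56-fold higher at 366 CPM, while the target *Gli1* stood at 22.3 CPM with an interval from 0.759 to 1.27.

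Genes that hypoxia induces were higher on balance. Of 32 listed, 27 passed the filter, 5 were at least 2-fold higher than in tendon-like cells and none was lower, with a median log2 ratio of 0.64. Over all genes, 1.54% were higher and 3.36% lower. With at least 10 UMIs, 6 of 31 were at least 2-fold higher and none was lower, against 5.24% and 11.5% of all genes. In the same count, 30 of 31 had a ratio above 1, against 49.5% of all 16067 such genes. *Car9*, a carbonic anhydrase, stood at 58.0 CPM and was 7.70-fold higher (6.12 to 9.73). It passed the filter only through the fibrocartilage-like cells. *Ankrd37*, *Stc2* and *Ndufa4l2*, which are direct or common targets of hypoxia-inducible factors, were 2.99-fold, 2.86-fold and 2.40-fold higher at 216, 68.9 and 722 CPM, and *Plod2*, listed here too, was the other gene past 2-fold. Of 20 glycolysis genes, 19 passed the filter and none was at least 2-fold lower, with a list median of 0.46. The phosphofructokinase *Pfkp*, at 161 CPM and 2.29-fold, was the 1 gene at least 2-fold higher, beside the same shares of 1.54% and 3.36% over all genes. *Pgk1* and *Ldha*, glycolytic enzymes, were 1.59-fold and 1.33-fold higher at 2978 and 2720 CPM. UMIs per cell were counted without the genes shared with the collagen modification list, such as *Plod2*. With every cell thinned to 2000 UMIs, the median cell held 25 UMIs of these hypoxia genes, against 18 in tendon-like and 19 in proliferating tendon-like cells.

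Cell cycle genes did not separate fibrocartilage-like from tendon-like cells. None of the 15 S phase genes or the 18 G2/M genes past the filter was 2-fold higher or lower, with medians of -0.07 and -0.08. *Mki67*, a marker of cycling cells, stood at 121 CPM (109 to 133) against 133 CPM in tendon-like and 950 CPM in proliferating cells. At equal depth it was found in 14.1%, 15% and 80.1% of these cells. The inhibitors of cyclin-dependent kinases differed by gene. *Cdkn1c*, an imprinted inhibitor, was 1.75-fold higher at 2541 CPM. *Cdkn2a* and *Cdkn2b*, neighbouring genes that accumulate in ageing cultures, were 10.5-fold (7.43 to 15.3) and 23.8-fold (14.6 to 41.7) lower at 9.92 and 4.81 CPM. Both were lower also against proliferating cells, which held 36.7 CPM of *Cdkn2a* and 48.5 CPM of *Cdkn2b*.

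Against tendon-like cells, contractile genes were the lowest list by its median, a log2 ratio of -0.80. Of 19 genes, 12 passed the filter, none was at least 2-fold higher and 3 were lower, against 1.54% and 3.36% of all genes. With at least 10 UMIs, 10 of 19 were lower, against 11.5%. Against all other culture cells, the median was -0.30 and the list summed to 4299 CPM against 4614 CPM. *Acta2*, smooth muscle actin, stood at 20.1 CPM against 400 CPM, 19.9-fold lower (15.6 to 25.7), and was found in 3.22% against 14.9% of cells at equal depth. Its ratio of 0.0503 became 0.0835 after thinning and 0.0762 when the CPM of single cells was averaged. *Tagln*, an actin-binding protein, stood at 44.8 CPM against 499 CPM, 11.1-fold lower (9.46 to 13.2), and *Myl9*, a myosin light chain, was 4.69-fold lower at 46.0 CPM. Among 34 protease genes and their inhibitors, none of 17 was at least 2-fold higher and 4 were lower, against 1.54% and 3.36% of all genes. With at least 10 UMIs, none of 30 was higher and 12 were lower. Against all other culture cells, 4 of 14 were higher and 1 was lower, where 3.49% and 8.34% of all genes were. Those lower than in tendon-like cells included *Timp1* at 63.1 CPM and 2.55-fold. The metalloprotease genes *Adam12* and *Adam19* were also lower, 4.12-fold and 4.31-fold at 6.92 and 17.1 CPM.

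Surface and secreted proteins gave genes on both sides. Of 36 surface and adhesion genes, 3 of 23 were at least 2-fold higher and 7 lower, against 1.54% and 3.36% of all genes. The adhesion receptor *Adgrg6* stood at 96.2 CPM and was 7.19-fold higher (6.04 to 8.57), the lysophosphatidic acid receptor *Lpar4* 3.84-fold higher at 146 CPM and the collagen-binding integrin chain *Itga11* 2.01-fold at 114 CPM. Of these, *Adgrg6* passed the filter only through the fibrocartilage-like cells. *Cd34* and *Ncam1*, surface glycoproteins, were 5.19-fold and 2.42-fold lower at 10.2 and 118 CPM. Of 28 secreted and imprinted genes, 2 of 21 were higher and 4 lower, beside the same shares. The Notch ligand relative *Dlk1* and the guidance protein *Sema3c* were 2.48-fold and 2.45-fold higher at 2062 and 248 CPM, the imprinted transcript *H19* 1.85-fold higher at 2717 CPM and *Igf2*, its neighbour, 1.79-fold higher at 287 CPM. *Igf1* and the binding protein *Igfbp3* were 3.79-fold and 6.13-fold lower at 77.3 and 41.2 CPM. Outside the lists, *Pcp4*, a calmodulin-binding peptide, and *Rtl3*, a gene of retrotransposon origin, were 7.24-fold and 7.01-fold higher at 234 and 90.8 CPM. The surface protein *Tm4sf1*, the methyltransferase *Nnmt* and the plasminogen activator *Plat* were between 8.33-fold and 9.95-fold lower.

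*Pomc*, the precursor of corticotropin and endorphin, was among the genes with the widest ratios to tendon-like cells, at 56.2 CPM and 16.1-fold, but 177 of its 187 UMIs came from 1 cell. That cell held 3789 UMIs, of which *Pomc* was 4.67%, had 12 *Col2a1* UMIs and was not called a doublet. The next cell held 1 *Pomc* UMI. Without that cell the ratio was 0.861 against tendon-like cells and 0.264 against all other cells, so that the direction of *Pomc* is that of 1 cell.

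Summed markers of other cell types were low, though not all were below tendon-like cells. The summed levels of the pluripotent, epithelial and nerve lists were 125, 65.6 and 23.8 CPM in fibrocartilage-like cells against 72.7, 50.7 and 19.6 CPM in tendon-like cells, and the first of these lists holds *Klf4*. Those of the endothelial, muscle and blood lists were 44.5, 15.6 and 12 CPM against 71.2, 24.2 and 42.9 CPM. No gene of the notochord list or of the p53 target list that passed the filter differed by 2-fold, of 1 and 15 genes, and of 3 osteoblast genes only *Spp1* did. With at least 10 UMIs, 2 of 9 notochord genes were higher and 1 lower, and the list summed to 195 CPM against 123 CPM. In the same count, 2 of 20 p53 targets and 4 of 9 osteoblast genes were lower and none higher. Over all genes, 5.24% were higher and 11.5% lower.

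Cell by cell, cartilage transcripts ranged from none to abundant. At 2000 UMIs per cell, the cartilage matrix list took a median of 11 UMIs in fibrocartilage-like cells, with a range from the 5th to the 95th percentile of 2 to 44, a maximum of 104 and 10 cells at 0. In tendon-like cells the median was 2 UMIs (0 to 9) and in proliferating cells 3. The tendon and fibrous matrix list took a median of 34 UMIs in fibrocartilage-like cells (16 to 60), against 60 in tendon-like and 50 in proliferating cells. The groups overlapped, since 325 of the 807 cells (40.3%) had no more cartilage UMIs than the 95th percentile of tendon-like cells, and 95 of 2822 tendon-like cells (3.37%) reached the median of fibrocartilage-like cells. In turn, 42 fibrocartilage-like cells (5.20%) reached the median tendon matrix level of tendon-like cells.

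**Figure D3:**
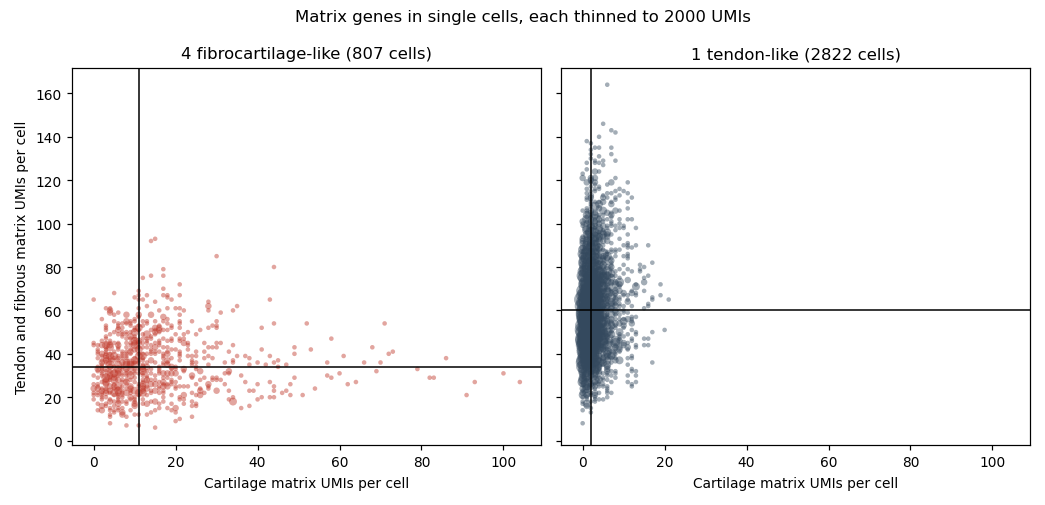
UMIs of the cartilage matrix list against UMIs of the tendon and fibrous matrix list per cell, with every cell thinned to 2000 UMIs, in fibrocartilage-like and tendon-like cells. Median cartilage values are 11 and 2 UMIs and median tendon values 34 and 60 UMIs, and the 2 groups overlap at low cartilage values.

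Across the 807 cells, which share 1 library and 1 fixed depth, the cartilage and tendon matrix UMIs had a Pearson correlation of 0.02. Single members did not all follow these sums, since *Col9a1* and *Dcn* were found together in 158 cells (19.6%), where the product of their shares gives 23.7%. The cartilage list correlated with the collagen modification list at 0.51, against 0.24 over 2822 tendon-like cells. The cartilage list held a median of only 2 UMIs in tendon-like cells, against 11 in fibrocartilage-like cells. Such low counts limit a correlation, so that the 2 values cannot be compared in strength. In fibrocartilage-like cells, the correlation of the cartilage list with the depth before thinning was -0.15 and with the cell cycle lists -0.12. Among the 15 nearest cells in a space of 30 principal components, made without the cluster codes, 77.1% of the neighbours of a fibrocartilage-like cell carried the same code, 18.4% were tendon-like and 4.03% proliferating. The code was that of most neighbours for 83.0% of fibrocartilage-like, 93.4% of tendon-like and 90.9% of proliferating cells.

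Clustering the 807 thinned cells on their own gave 3 groups of 380, 305 and 122 cells, with median depths of 3496.5, 4194 and 3947.5 UMIs before thinning. Values between these groups are descriptions, since the same genes made them. Group 1 (47.1%) was the cartilage-rich one. Beside *Pomc*, which is the single cell above, it was led by *Col11a2* (9.76-fold against the other groups), *Lbhd2* (8.30-fold), *Cnmd* (6.52-fold) and *Ddit3* (4.68-fold), a factor of the stress response. *Ddit3* had a UMI in 134 of its 380 cells and in 57 of the other 427. The next genes in order, named after their values were seen, were *Smoc2* (4.45-fold), *Nupr1* (3.71-fold), *Atf5* (3.71-fold), *Rora* (3.34-fold), *Asns* (3.30-fold) and *Acan* (3.29-fold). *Col2a1* stood at 3497 CPM in this group against 1256 and 1420 CPM, *Acan* at 335 against 89.6 and 132 CPM and *Sox9* at 486 against 366 and 282 CPM. *Vegfa* (253 against 135 and 100 CPM), *Car9* (93.9 against 29.9 and 31.5 CPM) and *Dlk1* (3009 against 1346 and 1242 CPM) were also highest there.

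Group 2 (37.8%) was led by the cytoskeletal gene *Filip1l* (3.86-fold), the creatine synthesis enzyme *Gamt* (2.93-fold), the WNT inhibitor *Nkd2* (2.92-fold), *Igf1* (2.87-fold) and the receptor *Epha7* (2.57-fold). *Dcn* stood at 1005 CPM in it and 1023 CPM in group 3, against 205 CPM in group 1, and *Scx* at 1819 CPM against 2975 and 1443 CPM. Group 3 (15.1%) was that of dividing cells, led by the mitosis genes *Cdc20* (45.7-fold), *Hmmr* (45.3-fold), *Kif20a* (37.9-fold), *Cenpf* (37.6-fold) and *Cenpe* (32.0-fold). *Mki67* stood at 536 CPM in it against 30.6 and 40.3 CPM. It held *Col2a1* at 1420 CPM, and dividing cells were therefore found among those with cartilage transcripts. The cartilage list took 1.11%, 0.465% and 0.484% of UMIs in the 3 groups in order, the tendon matrix list 1.66%, 1.95% and 1.64% and the hypoxia list 1.85%, 1.48% and 1.48%. The split depended on the resolution, with 3 groups at 0.5, 2 groups of 686 and 121 cells at 0.3 and 8 groups at 1. The adjusted Rand index with the 3 groups, which is 1 for the same grouping, was 0.34 at 0.3 and 0.357 at 1. With the cell cycle genes left out, 3 groups were found again, of which the largest held 376 and the smallest 102 cells, with an index of 0.701.

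**Figure D4:**
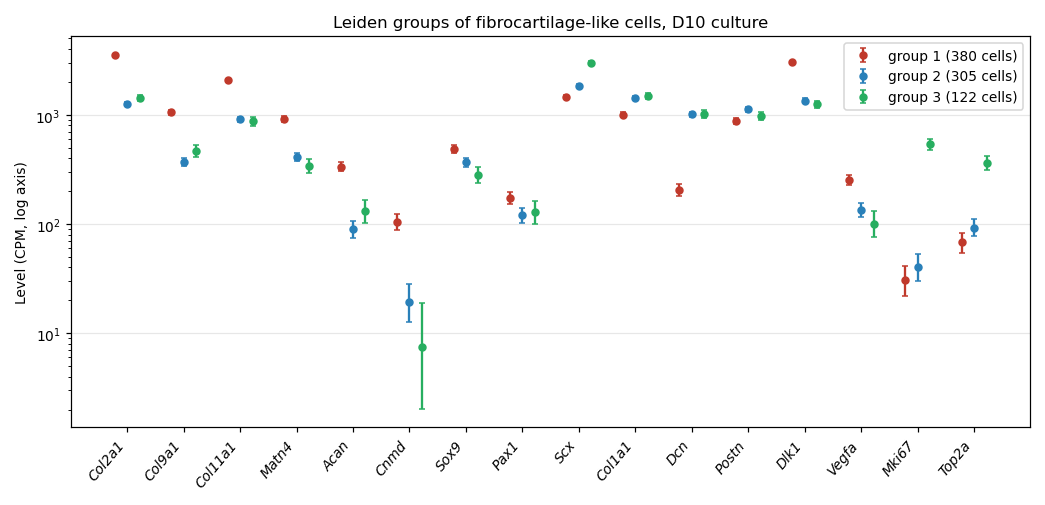
Levels of selected genes in CPM (log axis) in the 3 groups of fibrocartilage-like cells, with exact 95% intervals for counting error. *Col2a1* and *Acan* are highest in group 1 (3497 and 335 CPM), *Dcn* is lowest there (205 CPM) and *Mki67* is highest in group 3 (536 CPM).

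The same cluster code was carried by 241 of the 2052 cells of the E14.5 tail (11.7%), and the levels in both libraries are set side by side without a test. *Col2a1* stood at 2271 CPM in the culture and 4282 CPM in the tail, *Acan* at 208 and 259 CPM, and *Col9a1* at 687 and 1700 CPM. *Sox9* stood at 410 and 1214 CPM, *Pax1* at 143 and 1073 CPM, and *Pax9* at 215 and 181 CPM. *Cnmd* stood at 54.1 CPM in the culture and 257 CPM in the tail, and *Matn4* at 617 and 837 CPM. All of these except *Pax9* were higher in the tail library and *Pax9* was lower, and with 1 library each the spread between libraries is unknown. On the tendon side, *Scx* stood at 1852 and 1905 CPM, *Tnmd* had no UMI in the culture and 29 UMIs or 8.77 CPM in the tail, and *Dcn* stood at 662 and 36.3 CPM. In the D6 PM library, before TGFβ1 and SAG, *Col2a1* stood at 12.7 CPM, *Scx* at 21.1 CPM and *Pax9* at 20.0 CPM over all 5954 cells, and *Sox9* lay between *Col2a1* and *Pax9*. *Acan*, *Matn4* and *Pax1* were each under 1 CPM there, at 0.347, 0.424 and 0.964 CPM.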

How the data were processed

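The deposited files hold raw UMI counts, not normalized, by gene and cell, which the authors made with Cell Ranger from 10x 3′ v3 libraries, ignoring multi-mapping reads. The genome build of these counts is not given in the sources used here. The authors dropped cells above 7.5% mitochondrial RNA and the 2% at each end, aligned the culture to the tail as reference with Seurat 3.0 and deposited a cluster code per cell. Clusters were not remade. The deposited codes carry no names. The cells with fibrocartilage markers here stand in the study's table of cell numbers under another cluster number and share than its text gives fibrocartilage. Codes were therefore named here from marker genes, and shares are over the deposited cells.

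From the counts, UMIs were summed per gene and group over 27755 genes and given as CPM, with exact Poisson intervals for levels, conditional binomial intervals for ratios and Clopper-Pearson intervals for shares, at 95%. Cells are not replicates, so no test was made and precision is that of counting only. A gene counted as higher or lower at 2-fold if found in 10% of cells of either side. Cells were thinned with seed 1. Scrublet (expected rate 6%) marked doublets, which were kept. Groups used 2000 variable genes, 30 components, 15 neighbours and Leiden resolution 0.5. The tools were Python 3.11.15, NumPy 2.4.6, SciPy 1.17.1, scanpy 1.11.5, scikit-learn 1.9.0 and leidenalg 0.10.2.

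Genes could be named from 32 lists, as the 15 widest ratios per direction and comparison among genes with 100 UMIs over both sides and 50 CPM on the higher side, or as the 5 leading genes of a group. Not all are printed, and some are not reported here. The cells, lists and rules were chosen with earlier results of these data known. On simulated counts for the comparison with tendon-like cells, the 2-fold rule recovered 50 of 50 genes raised 4-fold, 50 of 50 raised 3-fold, 50 of 50 lowered 3-fold and 49 of 50 lowered 4-fold, and called 0 of 6924 unchanged genes. Alternatives varied the filter, the CPM definition, the cells counted, the weighting and the depth.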

Additional observations from a re-analysis of the deposited data

How the results depend on the processing

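The number of genes at least 2-fold higher or lower depended on the detection filter and the depth. The number of genes counted changed with them. Against all other cells, the 280 higher genes of 8014 became 143 of 4313 with a filter of 25% of cells. They became 1515 of 20678 without a filter (genes with at least 10 UMIs), 130 of 4162 after thinning to 2000 UMIs and 456 of 8014 when each cluster code had equal weight. The 668 lower genes became 236, 5595 and 190 under the first 3 of these. Against tendon-like cells, the 109 higher genes of 7077 became 54 of 3598, 842 of 16067 and 67 of 4015. The 238 lower genes became 113, 1845 and 127 of the same numbers. Of 162 ratios checked, none that was past 2-fold changed its direction under an alternative chosen at the start. Against all other cells, 128 left their counting interval with equal weight per code, 109 after thinning and 86 with averaged single-cell CPM, and 11, 4 and 2 changed their side of 1. Equal weight moved 73 of them by over 1.5 times, for example *Col2a1* from 11.5 to 20.7 and *Creb5* from 4.93 to 2.19. Against tendon-like cells, 48 and 36 left their interval after thinning and with averaged CPM, 12 and 5 moved by over 1.5 times, and 5 and 2 changed their side of 1. Leaving out called doublets moved 6 of these ratios by over 1.5 times, and 2 changed their side of 1. Leaving out the 1 cell with most UMIs of each gene, an alternative added after seeing the data, reversed *Pomc*, to 0.264 against all other cells and 0.861 against tendon-like cells. Near the 2-fold line, *Ctgf*, *Itga11*, *Col14a1*, *Has2*, *Fgfr2*, *Fzd8*, *Dusp6*, *Lox*, *Crabp2* and *Tcf15* were among the genes that crossed it under at least 1 alternative against tendon-like cells. The share of the culture was 11.1% and 11.3% when called doublets or cells under 1000 genes were left out. Depth limits genes under about 10 UMIs, as with *Fgf9* and *Thbs4*, and the shallowness of fibrocartilage-like cells limits shares of cells. No paired analysis was possible because each condition has 1 library.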
